A study of Rattus norvegicus with 28 samples.

Results

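The 10 genes described here encode annexins (Anxa1, Anxa2, Anxa3 and Anxa5), S100 proteins (S100a4, S100a6, S100a10 and S100a11), the intermediate filament protein vimentin (Vim) and the cell surface receptor Cd44. The set was chosen with earlier results of these data known, and its members were then found by gene symbol in the array's annotation. All 10 were present among 14217 measured genes. They had 15 probe sets (groups of probes for 1 transcript) among 31042, and each gene is given by its probe set of highest mean over all arrays. Kidney RNA of female rats was measured on 28 Affymetrix arrays in 4 groups of 7. The groups were the strain SBN/y with both kidneys after a sham operation, SBN/y after removal of the right kidney (uninephrectomy), and the same pair in the strain SBH/y. All groups were 5 months old, 4 months after the operation, and ate standard chow. SBN/y and SBH/y are the Sabra rat strains known as resistant and prone to salt-induced hypertension, and SBH/y is known for proteinuria. Samples carry numbers within their group, but nothing in the labels says that each is another animal, so the p-values cover only the spread among the samples measured.

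Annexins bind membrane phospholipids in the presence of calcium, and S100 proteins are small calcium sensors, several of which bind an annexin as a partner. Vimentin forms the intermediate filaments of mesenchymal cells, and Cd44 is a receptor for hyaluronan and osteopontin. In kidney, tubule cells that lose their differentiated state after injury are known to express genes of these families, and fibroblasts, leukocytes, glomeruli and medullary tubules also express several of them. In whole kidney, a change in the number of cells of a type and a change in the RNA per cell cannot be told apart.

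The 150 bases before the annotated start are shown for S100a4 and S100a6, whose values moved together from array to array, and for Vim and Cd44, which had the largest rises. They are read 5′ to 3′ on the strand of the gene, from RefSeq's sequence of the assembly GRCr8, at chr2:178388379-178388528 (plus strand), chr2:178398387-178398536 (plus strand), chr17:81577111-81577260 (plus strand) and chr3:109699425-109699574 (minus strand). Capitals mark matches to TATAAA, the core of a TATA box, or to GGGCGG, a GC box.
S100a4: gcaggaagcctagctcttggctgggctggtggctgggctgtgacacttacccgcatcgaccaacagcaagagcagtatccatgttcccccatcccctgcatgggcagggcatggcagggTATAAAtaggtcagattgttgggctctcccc
S100a6: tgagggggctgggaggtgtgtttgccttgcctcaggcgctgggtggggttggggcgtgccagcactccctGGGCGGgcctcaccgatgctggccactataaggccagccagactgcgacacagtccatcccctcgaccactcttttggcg
Vim: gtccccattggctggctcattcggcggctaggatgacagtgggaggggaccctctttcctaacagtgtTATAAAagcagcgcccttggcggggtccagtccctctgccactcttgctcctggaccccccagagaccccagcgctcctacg
Cd44: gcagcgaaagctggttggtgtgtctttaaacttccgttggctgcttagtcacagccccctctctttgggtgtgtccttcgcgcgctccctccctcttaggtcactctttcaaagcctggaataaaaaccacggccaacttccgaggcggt
Promoter sequences were found for 9 of the 10 genes, and S100a10 had no entry. On either strand of the 250 bases before the start, TATAAA was present in 4 of the 9 (Anxa1, Anxa2, S100a4 and Vim), against 12.9% of 33469 windows of that length. GGGCGG was present in 6 of 9, against 30.5% of windows, and lay 80 bases before the start of S100a6. TGANTCA, the site known for AP-1, was present in 1 of 9, Anxa2, against 6.34% of windows. The TATAAA match lay 31 bases before the start of S100a4 and 82 before that of Vim. None of these motifs was found in the Cd44 window. These matches describe the letters of the reference and say nothing of which factors bind there.

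The arrays had like medians, from 5.72 to 5.77 on the log2 scale of the deposited values. Markers of the proximal tubule stood high in all 28 arrays, with a mean over 10 genes between 11.65 and 11.90. Arrays differed in a score over 11 genes of the circadian clock, in log2 units, which is the mean of centred values with genes of the opposite phase turned. The score was above 0 in all 7 arrays of sham SBH/y (0.44 to 0.72) and below 0 in 6 of 7 arrays of uninephrectomized SBH/y (-1.25 to -0.81), with replicate 2 at 0.66. In uninephrectomized SBN/y, 6 arrays had scores from 0.21 to 0.60, and replicate 6 had -0.94. In sham SBN/y the scores ran from -0.31 to 0.42. In SBH/y, uninephrectomy and this score therefore cannot be told apart in 6 of 7 arrays. Values with the score in the fit are given beside the results of the 10 genes that it touches.

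**Figure D1:**
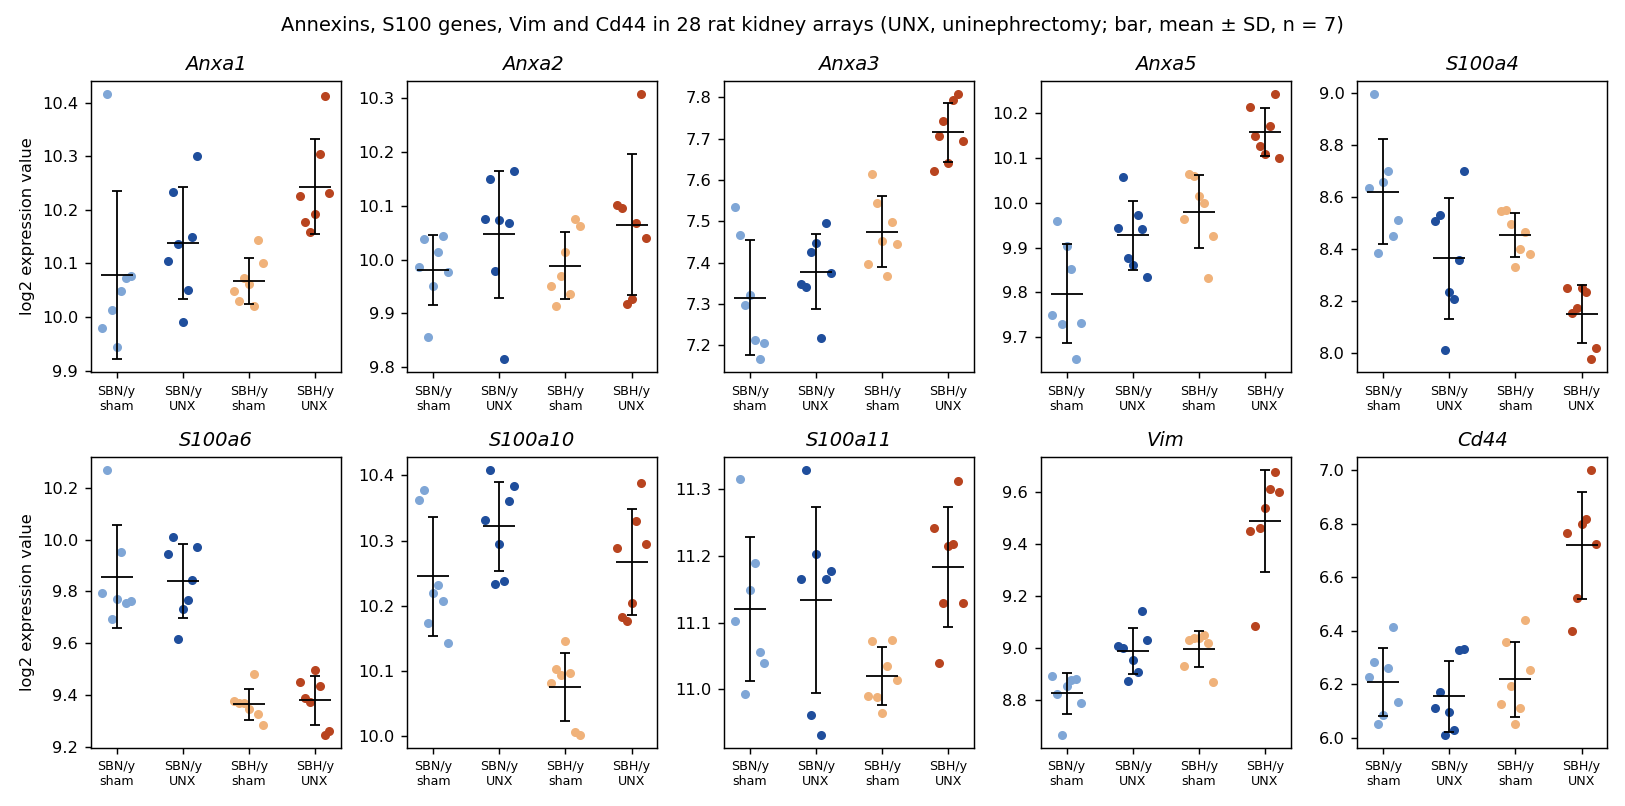
Log2 expression value of each of the 10 genes (vertical axes, with a scale of their own per gene) in 7 arrays of each group (points, in order of replicate number), with the group mean and SD. Vim and Cd44 are highest in uninephrectomized SBH/y, S100a6 is lower in both SBH/y groups (9.25 to 9.50) than in both SBN/y groups (9.62 to 10.27), and S100a4 is lowest in uninephrectomized SBH/y.

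The first comparison asked how these genes changed after uninephrectomy in SBH/y, the proteinuria-prone strain. Vim, Cd44, Anxa3, Anxa5 and S100a10 rose and S100a4 fell, while Anxa1, Anxa2, S100a6 and S100a11 did not pass the test. In limma, fitted to all 28 arrays with Benjamini-Hochberg adjustment over all 31042 probe sets and a threshold of 0.05, 5 of 10 genes were called higher and 1 lower. The share called among all probe sets was 8.24%, with 3.33% higher and 4.91% lower. The median difference of the 10 genes was 0.18 log2 units, against 0.01 over all probe sets. With the clock score as a covariate, an alternative chosen after seeing the data, 0 of the 10 genes and 75 of all probe sets were called.

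Vimentin is the filament protein by which mesenchymal and injured tubule cells are often recognised. Its log2 values in sham SBH/y ran from 8.87 to 9.05 with a median of 9.03, and after uninephrectomy from 9.09 to 9.68 with a median of 9.54. The groups did not overlap, but replicate 2 at 9.09 lay close to the sham arrays, while the other 6 lay at 9.45 or above. The difference was 0.49 ± 0.06 (SE) log2 units, a 1.41-fold rise (limma adjusted p 6.72e-06, n = 7 arrays per group). With the clock score as a covariate it was 0.26 ± 0.08 (limma adjusted p 0.21). In the 8 SBH/y arrays with a score above 0, which hold only replicate 2 of the uninephrectomized group, it was 0.09 ± 0.09 (limma adjusted p 1, with the lone array taken to vary like the other groups).

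Cd44 binds hyaluronan and osteopontin at the cell surface. In sham SBH/y its values ran from 6.05 to 6.44 with a median of 6.19, and after uninephrectomy from 6.40 to 7.0004 with a median of 6.76. Of the 7 uninephrectomized arrays, 6 lay above the highest sham array, and replicate 2, at 6.40, was again the lowest. The difference was 0.50 ± 0.08 log2 units, or 1.41-fold (limma adjusted p 8.19e-05, n = 7). It was 0.28 ± 0.11 with the clock score as a covariate (limma adjusted p 0.401). A second Cd44 probe set ran from 5.38 to 5.83 in sham SBH/y and from 6.04 to 6.67 after uninephrectomy, without overlap. It differed by 0.71 ± 0.10 (limma adjusted p 1.7e-05) in the fit without the clock score, and its value with the score was not taken out. Its sham mean of 5.63 lay below the lowest array median of 5.72, so this difference gives no exact fold of RNA.

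**Figure D2:**
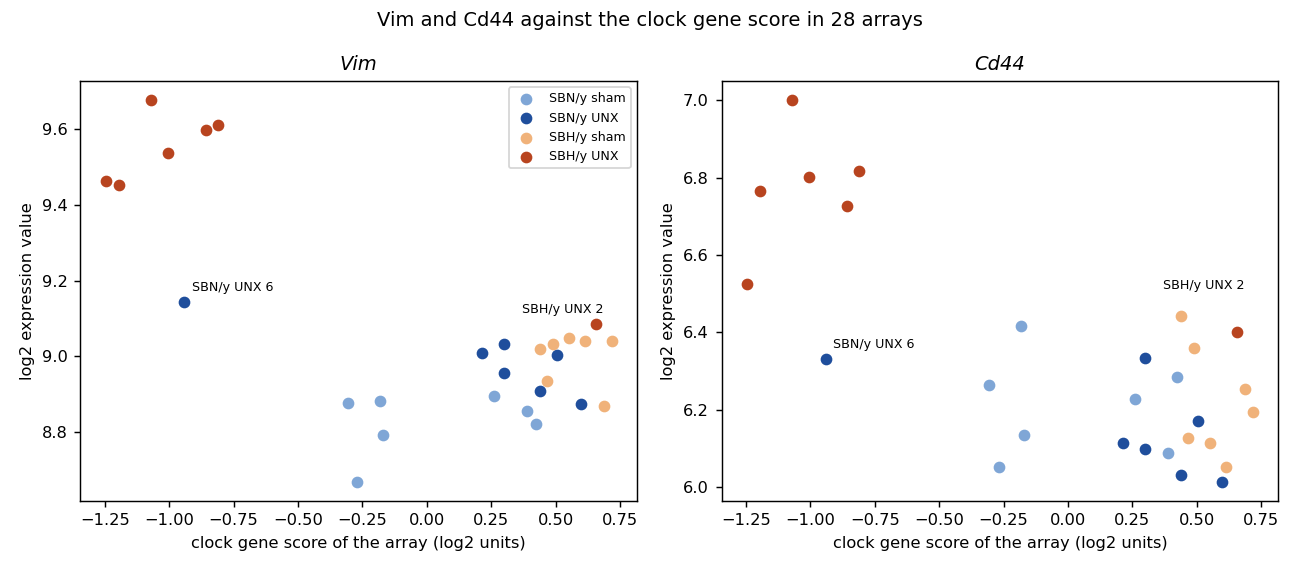
Log2 expression value of Vim and Cd44 (vertical axes) against the clock gene score of the array (horizontal axes, log2 units) in 28 arrays, coloured by group. The 6 uninephrectomized SBH/y arrays with scores of -0.81 or below hold the highest values of both genes, and the seventh, replicate 2 with a score of 0.66, lies at 9.09 for Vim and 6.40 for Cd44, near the sham arrays.

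Among the annexins, Anxa3, known as an inhibitor of phospholipase A2, ran from 7.37 to 7.62 (median 7.45) in sham SBH/y and from 7.62 to 7.81 (median 7.71) after uninephrectomy. Anxa5, which binds the phosphatidylserine exposed by dying cells, ran from 9.83 to 10.06 (median 9.999) and then from 10.10 to 10.24 (median 10.15). For both genes every uninephrectomized array lay above every sham array, by a narrow gap. The rise was 0.24 ± 0.05 log2 units for Anxa3 (limma adjusted p 0.00473, n = 7), or 1.18-fold. For Anxa5 it was 0.18 ± 0.05 (limma adjusted p 0.017, n = 7), or 1.13-fold. With the clock score as a covariate these differences were 0.26 ± 0.08 for Anxa3 and 0.21 ± 0.07 for Anxa5, no smaller than before but with wider errors (limma adjusted p 0.287 and 0.308). The 3 dimmer probe sets of Anxa3 had differences of 0.14, 0.20 and 0.17, and none of them was called.

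Anxa1, a glucocorticoid-induced protein that dampens inflammation, ran from 10.02 to 10.14 (median 10.06) in sham SBH/y and from 10.16 to 10.41 (median 10.23) after uninephrectomy. The groups did not overlap, yet the difference of 0.175 ± 0.06 did not pass (limma adjusted p 0.0562, n = 7). It passed when 1 of 3 single arrays was left out, at 0.175 (adjusted p 0.0139) without sham SBN/y replicate 2, 0.19 (0.0461) without sham SBH/y replicate 6 and 0.19 (0.047) without uninephrectomized SBH/y replicate 2. It also passed in 7 of the 8 planned settings other than leaving out arrays, with quantile normalization the exception (0.17 to 0.19, adjusted p 0.024 to 0.0623). Anxa2, the annexin that pairs with S100a10 at the plasma membrane, ran from 9.91 to 10.08 (median 9.97) and from 9.92 to 10.31 (median 10.07). Its ranges overlapped and its difference was 0.08 ± 0.05, with a 95% interval from -0.04 to 0.19 (limma adjusted p 0.457).

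Of the S100 genes, S100a10, the Anxa2 partner, ran from 10.003 to 10.15 (median 10.09) in sham SBH/y and from 10.18 to 10.39 (median 10.29) after uninephrectomy. It rose without overlap by 0.19 ± 0.04 log2 units (limma adjusted p 0.00592, n = 7), and by 0.18 ± 0.07 with the clock score as a covariate (limma adjusted p 0.423). S100a11, which binds Anxa1, ran from 10.96 to 11.07 (median 11.01) and then from 11.04 to 11.31 (median 11.21). Only replicate 2 of the uninephrectomized arrays fell within the sham range. The difference of 0.16 ± 0.06 did not pass (limma adjusted p 0.0663, n = 7). It passed without sham SBN/y replicate 2 (0.16, adjusted p 0.0481), uninephrectomized SBN/y replicate 5 (0.16, adjusted p 0.049) or uninephrectomized SBH/y replicate 2 (0.19, adjusted p 0.031). It passed in 7 of the 8 planned settings as well, again all but quantile normalization (0.16 to 0.17, adjusted p 0.0333 to 0.0679).

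S100a4, also called fibroblast-specific protein, fell after uninephrectomy in SBH/y. It ran from 8.33 to 8.55 (median 8.47) in sham SBH/y and from 7.98 to 8.25 (median 8.17) after uninephrectomy. Every uninephrectomized array lay below every sham array. The fall was -0.30 ± 0.09 log2 units (limma adjusted p 0.0243, n = 7), and -0.27 ± 0.13 with the clock score as a covariate (limma adjusted p 0.608). The call was lost without sham SBH/y replicate 1 (-0.29, adjusted p 0.0516), or without uninephrectomized SBH/y replicate 6 (-0.27, adjusted p 0.0613) or 7 (-0.28, adjusted p 0.0574). S100a6, or calcyclin, had medians of 9.37 and 9.39 and a difference of 0.01 ± 0.07, with a 95% interval from -0.13 to 0.16.

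The groups of 7 arrays did not overlap for 5 genes that were higher after uninephrectomy (Anxa1, Anxa3, Anxa5, S100a10 and Vim) and for 1 that was lower (S100a4). Such gaps between the groups were found for 0.883% of all probe sets upward and 1.07% downward. Within the uninephrectomized SBH/y group, replicate 6 was the highest array for 8 of the 10 genes and the lowest for S100a4 and S100a6. In the same group Havcr1, the kidney injury molecule, ran from 6.64 to 8.81.

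**Figure D3:**
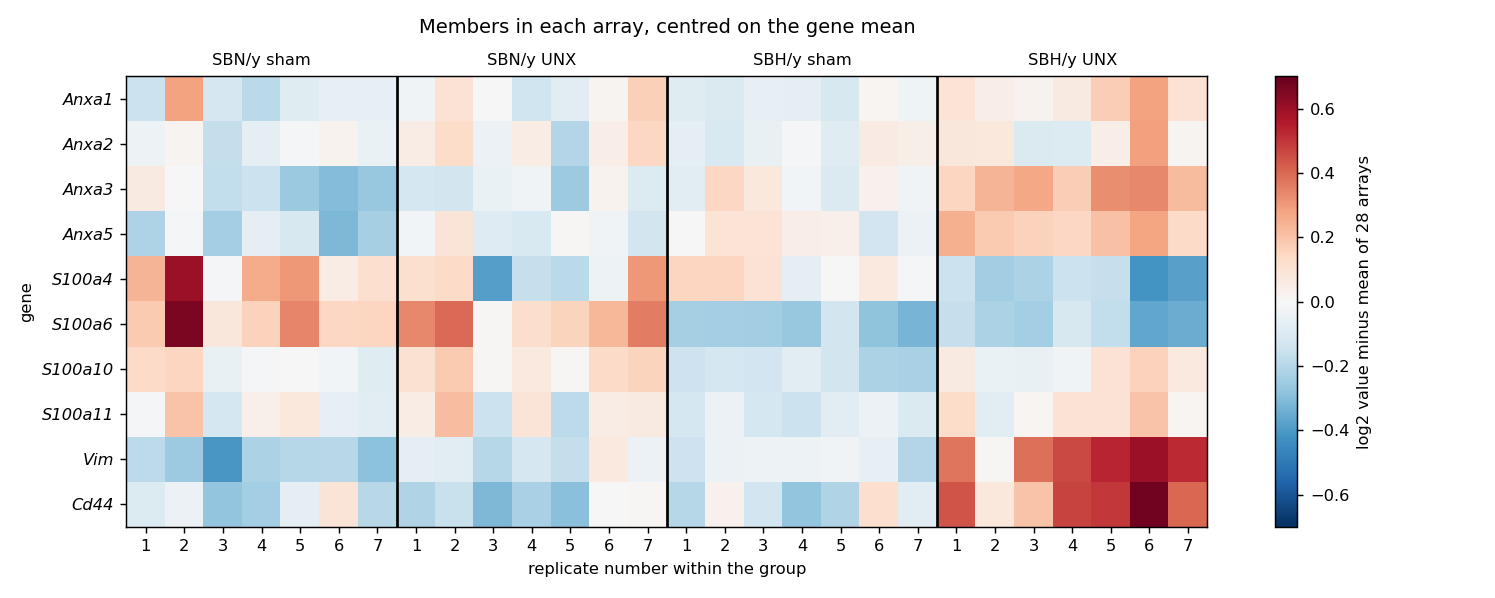
Log2 value of each gene in each of the 28 arrays minus the mean of that gene over all arrays (colour scale in log2 units), with arrays in order of group and replicate number. Replicate 6 of uninephrectomized SBH/y is the highest of its group for 8 genes and the lowest for S100a4 and S100a6, and replicate 2 of sham SBN/y is the highest of its group for 6 genes.

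The same operation in SBN/y asked whether these genes changed in the resistant strain. In limma 0 of 10 genes were called, against 0.464% of all probe sets (0.222% higher and 0.242% lower), and the lowest adjusted p was 0.249. An unadjusted p under 0.05 was reached by 3 genes. Of these, S100a4 differed by -0.26 ± 0.09 log2 units, with sham arrays from 8.39 to 8.996 (median 8.64) and uninephrectomized arrays from 8.01 to 8.70 (median 8.36). Vim differed by 0.16 ± 0.06, from 8.67 to 8.89 (median 8.86) in sham and from 8.87 to 9.14 (median 9.003) in uninephrectomized arrays, of which 6 lay above the highest sham array. Anxa5 differed by 0.13 ± 0.05, from 9.65 to 9.96 (median 9.75) and from 9.84 to 10.06 (median 9.94), with overlap. Replicate 6, which stands apart in clock score, had the highest Vim (9.14) and Anxa3 (7.49) values of its group. Cd44 ran from 6.05 to 6.42 in sham and from 6.01 to 6.33 in uninephrectomized SBN/y, a difference of -0.05 ± 0.08 with a 95% interval from -0.21 to 0.11. Its second, dimmer probe set differed by 0.19 ± 0.10 (limma adjusted p 0.622). The remaining genes differed by -0.02 to 0.08 log2 units, and the median over the 10 genes was 0.06 against 0.00 over all probe sets.

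Whether the response differed between the strains was tested in limma by subtracting the difference found in SBN/y from the one found in SBH/y. Only Cd44 passed, 1 of 10 genes, against 1.41% of all probe sets (0.596% higher and 0.818% lower). Its effect was larger in SBH/y by 0.55 ± 0.11 log2 units (limma adjusted p 0.00772, n = 7 arrays per group). With the clock score as a covariate this was 0.30 ± 0.13 (limma adjusted p 0.961), and 0 probe sets in all were then called. For the second Cd44 probe set the interaction was 0.52 ± 0.14 (limma adjusted p 0.0511). Vim had an interaction of 0.33 ± 0.09 that did not pass (limma adjusted p 0.056). It passed without sham SBN/y replicate 3 (0.36, adjusted p 0.0458), uninephrectomized SBN/y replicate 6 (0.35, adjusted p 0.0332) or uninephrectomized SBH/y replicate 2 (0.40, adjusted p 0.000762), and was 0.07 ± 0.10 with the clock score as a covariate. The interactions of the other genes lay between -0.05 and 0.18, and the median of the 10 was 0.11 against 0.00 over all probe sets. The difference in the fall of S100a4 was -0.05 ± 0.12.

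The strain comparison with both kidneys in place asked how SBH/y and SBN/y differed without loss of renal mass, at the same age. S100a6 and S100a10 were lower in SBH/y, and Anxa3 and Anxa5 were higher. In limma 4 of 10 genes were called, 2 in each direction, against 17.9% of all probe sets (9.64% higher and 8.31% lower). The median over the 10 genes was -0.00 log2 units against -0.02 over all probe sets. The strain comparisons share no arrays with each other, but each group also enters a uninephrectomy comparison, so their values are given side by side and not correlated.

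S100a6 is calcyclin, a calcium sensor abundant in epithelia and fibroblasts. In sham SBN/y it ran from 9.69 to 10.27 (median 9.77), and in sham SBH/y from 9.29 to 9.48 (median 9.37). The highest SBH/y array lay below the lowest SBN/y array. The difference was -0.49 ± 0.07 log2 units, a 1.41-fold lower value (limma adjusted p 2.96e-06, n = 7). It was the 1 gene of the 10 without overlap in this comparison, against 3.17% of all probe sets that were lower without overlap. No gene of the 10 was higher without overlap, against 3.65% of all probe sets. S100a6 has 1 probe set, and sequence variants between the strains under its probes were not examined, so binding to the probes and RNA level cannot be told apart. In the same comparison 4 of 6 thick ascending limb markers and 3 of 7 collecting duct and inner medulla markers were also lower in SBH/y, with none higher, and their part in the S100a6 and S100a10 differences was not tested.

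S100a10 ran from 10.14 to 10.38 (median 10.22) in sham SBN/y and was lower in sham SBH/y by -0.17 ± 0.04 log2 units (limma adjusted p 0.00679, n = 7), with 6 of 7 SBH/y arrays below the lowest SBN/y array. Anxa5 was higher by 0.18 ± 0.05 (limma adjusted p 0.00635), with 5 of 7 SBH/y arrays above the highest SBN/y array. Anxa3 ran from 7.17 to 7.53 (median 7.30) in sham SBN/y and was higher in sham SBH/y by 0.16 ± 0.05 (limma adjusted p 0.041), with 2 arrays above the SBN/y range. The Anxa3 call was lost on leaving out any 1 of 9 arrays, sham SBN/y replicates 3 to 7 and sham SBH/y replicates 2, 3, 4 and 6, with values from 0.13 to 0.16 and adjusted p from 0.0538 to 0.108. Its 3 dimmer probe sets differed by -0.01 to -0.04 and were not called. Vim differed by 0.17 ± 0.06 (limma adjusted p 0.0608), with 6 of 7 SBH/y arrays above the highest SBN/y array. It passed without sham SBH/y replicate 7 (0.19, adjusted p 0.0409) or uninephrectomized SBH/y replicate 2 (0.17, adjusted p 0.0105) or 6 (0.17, adjusted p 0.04995), and in 7 of the 8 planned settings, all but quantile normalization (0.14 to 0.18, adjusted p 0.021 to 0.149). With the clock score as a covariate, Vim passed (0.26 ± 0.06, limma adjusted p 0.0016) and Anxa3 did not (0.15 ± 0.06, limma adjusted p 0.097).

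The Cd44 probe sets disagreed here. The brighter differed by 0.01 ± 0.08 and the other by 0.39 ± 0.10 (limma adjusted p 0.00445), with 3 of 7 SBH/y arrays above the SBN/y range of 4.96 to 5.64. In both sham groups the means of the other set, 5.24 and 5.63, lay below the lowest array median of 5.72. Sequence variants between the strains under the Cd44 probes were not examined, so binding and RNA level cannot be told apart. Anxa1 and Anxa2 differed by -0.01 ± 0.06 and 0.01 ± 0.05, with 95% intervals from -0.13 to 0.11 and from -0.10 to 0.12. In sham SBN/y, Anxa1 ran from 9.94 to 10.42 (median 10.05), where replicate 2 was the highest by far, and Anxa2 from 9.86 to 10.04 (median 9.99). S100a11 ran from 10.99 to 11.32 (median 11.10) in sham SBN/y and differed by -0.10 ± 0.06. S100a4 differed by -0.17 ± 0.09 (limma adjusted p 0.193).

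**Figure D4:**
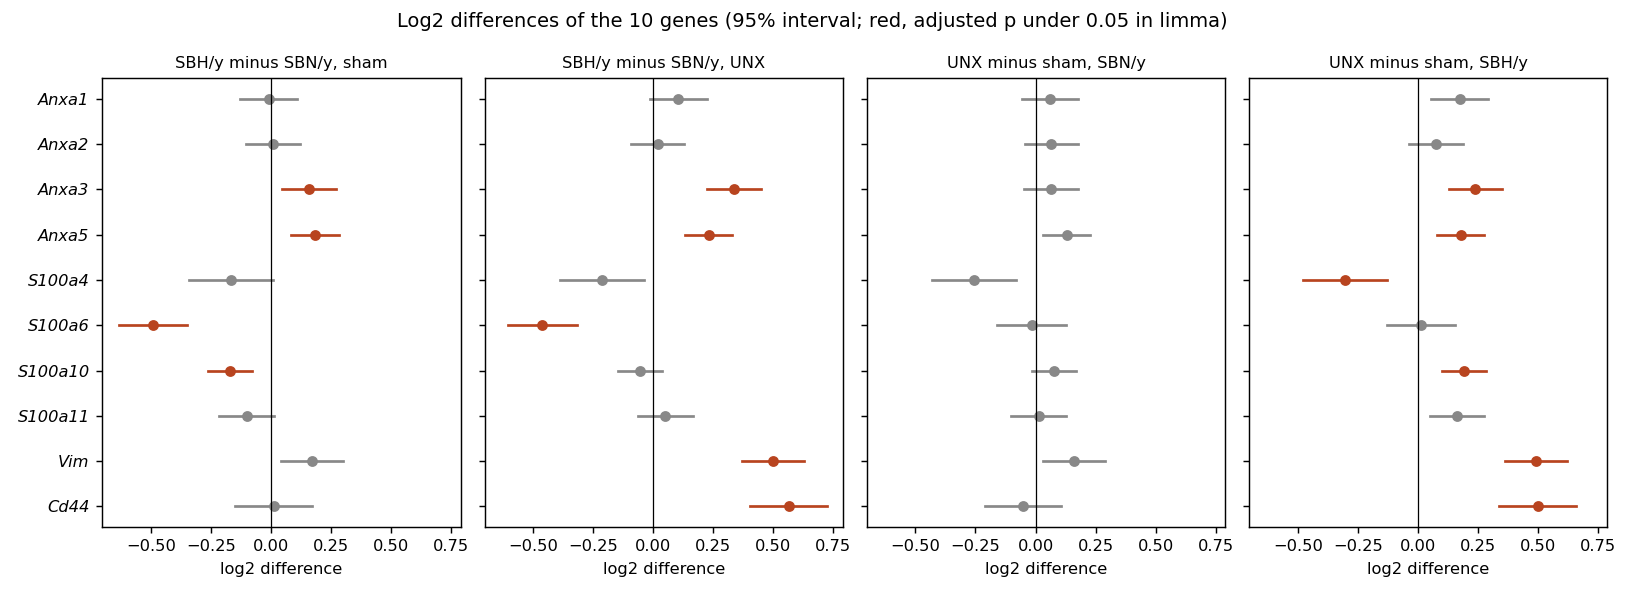
Log2 difference of each gene with its 95% interval in the strain comparisons and the uninephrectomy comparisons (horizontal axes, log2 units), red where the limma adjusted p was under 0.05. Vim and Cd44 lie near 0.5 in uninephrectomized SBH/y against either of its comparison groups, and S100a6 lies at -0.49 and -0.46 in the strain comparisons and near 0 in the uninephrectomy comparisons.

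After uninephrectomy the strain comparison gave 5 called genes of 10 in limma, 4 higher in SBH/y and 1 lower, against 21.5% of all probe sets (11.1% higher and 10.3% lower). The median over the 10 genes was 0.08 log2 units against -0.01 over all probe sets. Cd44 was higher by 0.56 ± 0.08 (limma adjusted p 1.35e-06), Vim by 0.50 ± 0.06 (2.95e-07), Anxa3 by 0.34 ± 0.05 (1.92e-05) and Anxa5 by 0.23 ± 0.05 (0.000462). Anxa3, Anxa5 and Cd44 did not overlap between the strains, against 4.94% of all probe sets that were higher without overlap. For Vim, 6 of 7 SBH/y arrays lay above the SBN/y range, with replicate 2 inside it. The 3 dimmer Anxa3 probe sets differed by 0.10, 0.17 and 0.13 and were not called (limma adjusted p 0.314, 0.169 and 0.133), and the mean of all 4 gave 0.19 (0.00389). The second Cd44 probe set was higher by 0.905 ± 0.10 (limma adjusted p 1.38e-08).

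S100a6 was lower by -0.46 ± 0.07 (limma adjusted p 6.13e-06), from 9.25 to 9.50 (median 9.39) in SBH/y and from 9.62 to 10.01 (median 9.84) in SBN/y. It again did not overlap, against 4.21% of all probe sets that were lower without overlap. With the clock score as a covariate the same number of genes, 5, was called, with Vim at 0.33 ± 0.07 and Cd44 at 0.40 ± 0.09 (limma adjusted p 0.000806 and 0.00238). Among arrays with a score above 0, which hold 1 uninephrectomized SBH/y array, Vim differed by 0.12 and Cd44 by 0.27. Among arrays with a score below 0, which hold 1 uninephrectomized SBN/y array, they differed by 0.41 and 0.44. S100a4 differed by -0.21 ± 0.09 (limma adjusted p 0.0777), and passed without sham SBN/y replicate 2 (-0.21, adjusted p 0.0464) or uninephrectomized SBN/y replicate 3 (-0.27, adjusted p 0.0157). S100a10, which was lower in SBH/y with both kidneys, differed by -0.05 ± 0.04, from 10.23 to 10.41 (median 10.33) in SBN/y and from 10.18 to 10.39 in SBH/y. The values of Anxa1 in uninephrectomized SBN/y ran from 9.99 to 10.30 (median 10.14), of Anxa2 from 9.82 to 10.16 (median 10.07), and of S100a11 from 10.93 to 11.33 (median 11.17). Anxa1 differed between the strains by 0.10 ± 0.06, Anxa2 by 0.02 ± 0.05 and S100a11 by 0.05 ± 0.06, and their ranges overlapped.

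In order of median, Vim was lowest in sham SBN/y, then uninephrectomized SBN/y, sham SBH/y and uninephrectomized SBH/y. The middle groups of that order had ranges of 8.87 to 9.14 and 8.87 to 9.05 and were not apart. For the brighter Cd44 probe set the medians of the other 3 groups lay between 6.11 and 6.23 with overlapping ranges, below that of uninephrectomized SBH/y. The second Cd44 set was not level over those groups. Its medians were 5.13 in sham SBN/y, 5.48 in uninephrectomized SBN/y, 5.61 in sham SBH/y and 6.31 in uninephrectomized SBH/y.

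Arrays of 1 group also differed among themselves, and the genes did so together. After the group means were subtracted, the values of 44 of the 45 pairs of genes correlated above 0 over the 28 arrays, with a median r of 0.458. With 100000 permutations within groups and adjustment over the 45 pairs, 18 had an adjusted p under 0.05. The share of all gene pairs that would pass such a test was not computed, so this count has no background to be read against. The permutations took no account of replicate numbers. All genes of an array share its RNA sample and its normalization, and whether these correlations come from a link between the genes was not tested. Over all pairs of the 14217 measured genes, 51.4% correlated above 0 and the median r was 0.011. Pairs of like brightness were not looked at apart.

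The largest was that of S100a4 and S100a6, which lie on chromosome 2 with 1 annotated gene, S100a5, between them. Pearson's r was 0.877 and Spearman's rho 0.881, each with a permutation p of 1e-05, the smallest these permutations can give, and an adjusted p of 0.00045. Without the 2 arrays farthest from the median of S100a4, r was 0.819. Within groups it was 0.934 in sham SBN/y, 0.951 in uninephrectomized SBN/y and 0.976 in uninephrectomized SBH/y, but 0.103 in sham SBH/y, where both genes had their narrowest ranges. In the group comparisons S100a6 was called in both strain comparisons, and S100a4 after uninephrectomy in SBH/y.

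**Figure D5:**
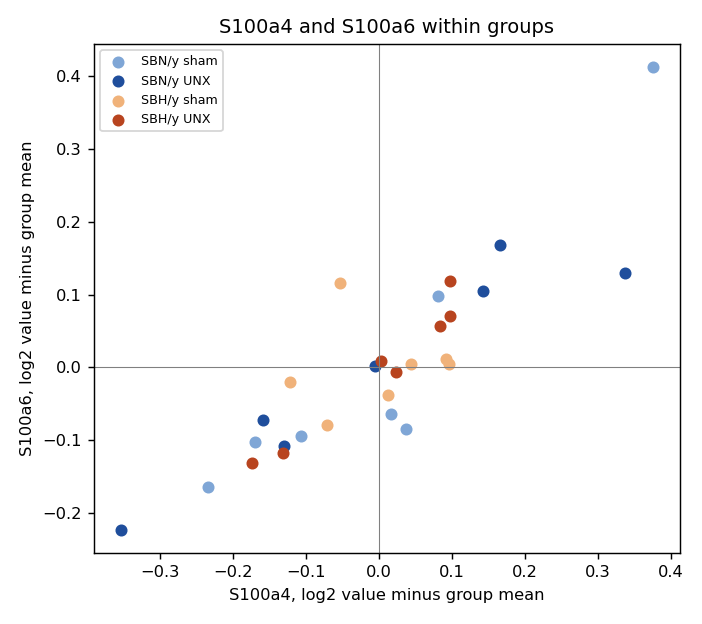
Log2 value minus the group mean for S100a4 (horizontal axis) and S100a6 (vertical axis) in 28 arrays, coloured by group. The values rise together (r 0.877), with replicate 2 of sham SBN/y farthest to the upper right and the 7 sham SBH/y arrays within a narrow range of S100a4.

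Vim and Cd44 correlated with r 0.689 (permutation p 0.00033, adjusted 0.00742) and rho 0.597 (permutation p 0.00197, adjusted 0.0177), and r was 0.559 without the 2 farthest arrays. Within groups r ran from -0.05 in sham SBH/y to 0.895 in uninephrectomized SBN/y. S100a10 and S100a11 had r 0.659 (permutation p 0.00054, adjusted 0.0081) and rho 0.595 (permutation p 0.00294, adjusted 0.0189), with r 0.551 without the 2 farthest arrays and -0.457 within sham SBH/y. For Anxa2 and S100a10, whose proteins form a complex, r was 0.527 (permutation p 0.00613, adjusted 0.023) and rho 0.415 (permutation p 0.0387, adjusted 0.114). That relation fell to r 0.379 without the 2 farthest arrays and was -0.667 within sham SBH/y.

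Relatives and partners of these genes were taken from lists of 73 genes in all. Their values, and those of the cell markers further on, come from the fit without the clock score. In SBH/y that score and uninephrectomy could not be told apart in most arrays. With the score as a covariate, no probe set was called in the interaction, and fewer were called for uninephrectomy in SBH/y. Of 6 other annexins measured, Anxa7 rose after uninephrectomy in SBH/y, by 0.17 ± 0.05 log2 units (limma adjusted p 0.0428), and none fell. Anxa6 was lower in SBH/y after uninephrectomy, by -0.34 ± 0.06 (limma adjusted p 4.74e-05), and Anxa8 and the dim Anxa9 were not called in any comparison. The list's median in SBH/y after uninephrectomy was -0.05, against 0.18 for the 10 genes and 0.01 over all probe sets.

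Of 9 other S100 genes, 6 had means below the lowest array median in every group. S100a13 was higher in SBH/y in both strain comparisons, by 0.54 ± 0.07 with both kidneys (limma adjusted p 1.06e-06) and 0.68 ± 0.07 after uninephrectomy (1.32e-08). S100a1 was higher by 0.35 ± 0.05 and 0.21 ± 0.05 (limma adjusted p 6.04e-06 and 0.00313). After uninephrectomy in SBH/y, 1 was called higher, S100a3 at 0.25 ± 0.07, and 1 lower, S100a9, a calprotectin subunit of neutrophils, at -1.11 ± 0.27. Both of these were among the dim 6, so these differences give no exact fold of RNA.

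Among 8 partners of annexins and S100 proteins, Plat, the tissue plasminogen activator whose activity the Anxa2 and S100a10 complex is known to promote, was higher in SBH/y with both kidneys by 0.36 ± 0.06 (limma adjusted p 4.8e-05). It fell after uninephrectomy in SBH/y by 0.26 on the log2 scale (limma adjusted p 0.00511), the 1 call of the list there. Cacybp, the calcyclin-binding protein, was higher in SBH/y with both kidneys by 0.22 ± 0.08, and Ager, a receptor for several S100 proteins, was lower by -0.23 ± 0.06 (limma adjusted p 0.0422 and 0.00779). Pla2g4a, the cytosolic phospholipase A2, was not called in any comparison.

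Of 11 ligands and anchors of Cd44, 2 rose and 1 fell after uninephrectomy in SBH/y. Spp1, osteopontin, ran from 11.52 to 11.67 in sham SBH/y and from 12.16 to 12.89 after uninephrectomy, and rose by 0.86 ± 0.10 (limma adjusted p 7.34e-07). Its rise exceeded that in SBN/y by 0.77 ± 0.14 (limma adjusted p 0.00318). Cd74, the invariant chain and a Cd44 co-receptor, rose by 0.25 ± 0.05, and Rdx, radixin, which anchors Cd44 to actin, fell by 0.13 on the log2 scale (limma adjusted p 0.00192 and 0.0265). Lgals9, galectin 9, was higher in SBH/y by 0.22 ± 0.07 with both kidneys and 0.20 ± 0.07 after uninephrectomy.

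Of 12 other intermediate filament genes, 2 rose after uninephrectomy in SBH/y and none fell. Des, desmin, rose by 0.29 ± 0.06 (limma adjusted p 0.0043) and differed between the strains in its response by 0.36 ± 0.09 (0.0428). Krt8, a keratin of simple epithelia, rose by 0.21 ± 0.07 (limma adjusted p 0.0407). With both kidneys it was lower in SBH/y than in SBN/y, by -0.23 ± 0.07 (limma adjusted p 0.0104). After uninephrectomy the strains differed in Krt8 by 0.04 ± 0.07 (limma adjusted p 0.754). Krt19 was lower in SBH/y by -0.44 ± 0.10 with both kidneys, and Lmnb1, a nuclear lamin, was higher by 0.22 ± 0.07 (limma adjusted p 0.00223 and 0.03).

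Of 16 other genes known from injured or dedifferentiated tubules, 5 rose after uninephrectomy in SBH/y and none fell, with a list median of 0.11. Havcr1 had the largest rise, 2.79 ± 0.23, from 4.36 to 5.07 in sham arrays and from 6.64 to 8.81 in uninephrectomized arrays (limma adjusted p 4.37e-09). The sham values lay below the lowest array median of 5.72, so this difference gives no exact fold of RNA. Timp1, a metalloproteinase inhibitor, rose by 0.53 ± 0.08, the secreted chaperone Clu by 0.51 ± 0.07, the transcription factor Klf6 by 0.38 ± 0.07 and Prom1 by 0.25 ± 0.07. Clu was lower in SBH/y with both kidneys, by -0.64 ± 0.07, and Lgals3, galectin 3, was higher by 0.40 ± 0.07.

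Markers of other cells moved with these groups. The mean of 13 macrophage and monocyte markers ran from 6.68 to 7.004 in sham SBN/y, 6.73 to 6.91 in uninephrectomized SBN/y, 7.01 to 7.35 in sham SBH/y and 7.10 to 7.43 in uninephrectomized SBH/y. After uninephrectomy in SBH/y 4 of the 13 were called higher, among them Csf1r at 0.33 ± 0.06 and Tyrobp at 0.29 ± 0.07, while Cd68 at 0.11 ± 0.08, Adgre1 at -0.24 ± 0.10 and Cd14 at -0.19 ± 0.06 were not called. The list median was 0.21. In the strain comparisons 8 were higher and 1 lower with both kidneys, and 10 higher and 1 lower after uninephrectomy. Of the 13, 1 had a mean below the lowest array median in every group.

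Of 8 T and B cell markers, 4 rose after uninephrectomy in SBH/y, with a mean from 4.81 to 5.10 in sham and from 5.05 to 5.44 in uninephrectomized arrays, and 5 of the 8 were dim in all groups. Of 9 fibroblast and pericyte markers, 2 rose and 1 fell, with means from 6.91 to 7.17 and from 7.05 to 7.28. Col1a1 rose by 0.46 ± 0.09, Pdgfra fell with a difference of -0.17 ± 0.05, and the list median was 0.10. All 5 measured podocyte markers fell, with means from 8.04 to 8.14 in sham and from 7.41 to 7.89 in uninephrectomized SBH/y. Markers of other nephron segments and of vessels differed between the strains. Of 6 thick ascending limb markers, 4 were lower with both kidneys (list median -0.31) and 5 after uninephrectomy (-0.53). Their mean ran from 9.78 to 10.01 in sham and 9.94 to 10.16 in uninephrectomized SBN/y, and from 9.46 to 9.61 and 9.40 to 9.56 in SBH/y. The ranges of the strains did not overlap. Of 7 collecting duct and inner medulla markers, 3 were lower in each strain comparison (list medians -0.08 and -0.22). Their means ran from 9.08 to 9.54 and 8.88 to 9.34 in SBN/y and from 8.99 to 9.21 and 8.75 to 9.08 in SBH/y. Of 8 endothelial markers, 1 was higher and 2 lower with both kidneys, and 1 higher and 6 lower after uninephrectomy (list medians -0.155 and -0.29). Their means ran from 8.47 to 8.78 and 8.51 to 8.71 in SBN/y and from 8.42 to 8.76 and 8.25 to 8.58 in SBH/y. After uninephrectomy in SBH/y, 2 endothelial and 2 collecting duct markers fell and 1 thick ascending limb marker rose. The part of all these cells in the differences of the 10 genes was not tested.

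The genes most like the mean of the 10 centred genes over the 28 arrays were Spp1 (r 0.815), Sh3bgrl3 (r 0.766), Flot2, a membrane raft protein (r 0.748), Laptm4b, a lysosomal membrane protein (r 0.746), and Csf1r, the receptor of macrophage growth factor (r 0.737). After the group means were subtracted they were Lgals3 (r 0.815), Scin, an actin-severing protein (r 0.813), Tmsb4x, an actin-binding peptide (r 0.797), Clu (r 0.796) and Ctla2a (r 0.729). These are descriptions over 28 arrays that share 4 groups and, within an array, an RNA sample.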

How the data were processed

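The authors deposited 1 table of log2 expression values for 31099 probe sets on 28 arrays, made with GCOS and RMA per the submitters' processing notes, with versions not given in the sources used here. RMA scales arrays to a common distribution, so differences in total RNA cannot be seen. The 57 control probe sets were left out. Of 31042 probe sets, 20826 had 1 gene symbol, 436 several and 9780 none, and 20758 were matched by gene ID to RefSeq's GRCr8 table. Signal over background was not available per probe, and the number of arrays limits precision.

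Group means of all 28 arrays were fitted by lmFit and eBayes of limma 3.58.1 (R 4.3.3) and compared in 5 contrasts, with p-values adjusted by Benjamini-Hochberg over all probe sets and a threshold of 0.05. The value after ± is limma's SE, and intervals are 95%. Correlations used 100000 permutations within groups (numpy 2.4.6, scipy 1.17.1). The test was checked on simulated data. Alternatives were other normalization and centring, a filter on dim probe sets, other variance models, array weights, fewer samples, a replicate block, the mean of all probe sets, leaving out each array, and 4 settings on the clock score that were chosen after seeing the data. The score used 11 clock genes.

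The members and the gene lists were chosen with earlier results of these data known. All members were named whatever their values, up to 4 genes per related list by smallest p in any contrast, 5 genes by likeness in each of both ways, and up to 3 markers per cell type list. Timp1, Klf6, Adgre1 and Cd14 fell outside this rule and were named after their values were seen. Pdgfra was also named after its value was seen.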

Additional observations from a re-analysis of the deposited data

Results flagged for a closer look

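Anxa1 in sham SBN/y had 1 array, replicate 2, far above the others, at 10.42 against 10.08 for the next, and the gap was 0.722 of the range of the 7 arrays. Vim in uninephrectomized SBH/y had 1 array, replicate 2, far below the others, at 9.09 against 9.45 for the next, and the gap was 0.619 of the range. Over 40 sets of 1 gene in 1 group, 2 were so marked, and chance marks about 1 in 20. The effect of uninephrectomy on Cd44 differed between the strains by 0.55 log2 units in the test of the interaction in limma (adjusted p 0.00772).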

How the results depend on the processing

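No difference that passed in any setting changed sign, over 2156 values computed, which include counts of called genes. The planned settings gave 3 to 5 called genes of 10 between strains with both kidneys, 5 after uninephrectomy, 0 for uninephrectomy in SBN/y and 6 to 8 in SBH/y. Vim was gained in the first, and Anxa1 and S100a11 in the last, each in 7 of 8. For the interaction 2 genes were called instead of 1 (Vim with Cd44) with median centring, without the dimmest 40% of probe sets, with a trended and robust variance, with array weights, with the replicate block and with the mean of all probe sets of a gene. Leaving out single arrays gave 3 to 5, 5 to 6, 0, 5 to 8 and, for the interaction, 1 to 2 called genes. The Anxa3 strain difference with both kidneys was lost with quantile normalization (0.14), with the compared groups alone (0.16) and with the mean of its probe sets (0.02).

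The replicate block gave 5 and 5 called genes in the strain comparisons, 0 and 8 in the uninephrectomy comparisons and 2 in the interaction. Same-numbered arrays of different groups correlated with r from -0.095 to 0.586, over 0.1 in 24 of 42 pairs. Of 28 arrays, 10 correlated best with an array of their own number, which 1 of the 7 arrays in each other group carries. The spread of this count without pairing was not computed. Whether the numbers mark pairs or batches was not tested, and the main fit took no account of them.

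Among the settings chosen after seeing the data, the clock score as a covariate left 0 called genes for uninephrectomy in SBH/y and 0 in the interaction. With only arrays of a score above 0, 2 genes were called between strains with both kidneys, and 0 after uninephrectomy, for uninephrectomy in SBH/y and in the interaction, where 1 uninephrectomized SBH/y array remained. With only arrays of a score below 0, 2 were called between strains after uninephrectomy, where 1 SBN/y array remained. Without both arrays apart in score, 2 were called in the interaction and 7 for uninephrectomy in SBH/y. Where 1 array of a group remained, the errors of the set's genes were wider than in the main fit. Without both arrays apart in score, the errors for uninephrectomy in SBH/y were narrower for Vim and Cd44 and wider for the other genes. The covariate fit left out no arrays, and its errors there were also wider. Its difference there was 0.26 against 0.49 for Vim and 0.28 against 0.50 for Cd44. For Anxa3 and Anxa5 it was no smaller. The Cd44 interaction was 0.30 against 0.55. The cause of the changes was not tested. Dim probe sets limit what the missing calls of S100 relatives can show.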
